A study of Mus musculus with 24 samples.

Results

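Fos, Fosb, Fosl1, Fosl2, Jun, Junb, Jund, Atf3, Egr1 and Egr2 are 10 genes that encode the AP-1 proteins of the FOS and JUN families, the stress factor ATF3 and a pair of early growth response (EGR) factors. They were chosen by name, with earlier results of these data known. Each symbol matched 1 of 45318 Ensembl genes in a table of RNA sequencing counts. The RNA came from Lys-GFP-ER-HoxA9 cells, in which, as the name says, HoxA9 is joined to an estrogen receptor (ER) and GFP reports lysozyme, on a C57Bl/6 background. All libraries share this genotype, a medium with stem cell factor, and growth with beta-estradiol at 0.5 uM before treatment. The withdrawal arm held 2 libraries at each of 0, 4, 8, 12, 24, 36, 48, 72, 96 and 120 h without estradiol (20 libraries, called A and B within a time). The R07 arm held 1 library each at 12, 36, 72 and 120 h (4 libraries). R07 is a compound known here by its code alone, its dose is not stated, and the same text on culture without estradiol is attached to its libraries as to all others, so its estradiol status is not stated separately. The labels name 1 line and give neither its clonality nor whether replicate libraries were separate cultures, so p-values measure only the spread between these libraries.

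FOS proteins cannot form stable dimers with each other and bind DNA as partners of a JUN protein, whereas JUN proteins also pair among themselves. The dimers, called AP-1, act through short elements such as the TRE and, with ATF partners, the CRE. Most of these genes are immediate early genes, which are transcribed within minutes of a growth, cytokine or stress signal without new protein synthesis, and whose mRNAs decay quickly. EGR factors are zinc finger proteins switched on by the same kinds of signal, often through serum response factor at CArG boxes. In myeloid cells, AP-1 and EGR factors are known for their part in monocyte and macrophage differentiation, and ATF3 for restraining inflammatory genes in activated macrophages.

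Promoter windows from RefSeq (build GRCm38.p6, 250 bases before to 50 after each start) were used for 8 of the 10 genes: Fos, Fosb, Fosl2, Jun, Junb, Jund, Atf3 and, with 5 starts, Egr2. The stretches below run from 150 to 9 bases before the start on the strand of the gene. Atf3 and Jun are shown because they had the largest increases at 4 h, Fos because it was above 0 h at every later time, and Egr2 (the third start) as an EGR gene that rose at 96 and 120 h. Capitals mark a C/EBP-ATF composite site in Atf3, the Jun-type TRE in Jun, a CArG box between 2 CRE core sites in Egr2, and 2 CRE core sites and a TATA box in Fos.
Atf3, chr1:191183342-191183483, minus strand: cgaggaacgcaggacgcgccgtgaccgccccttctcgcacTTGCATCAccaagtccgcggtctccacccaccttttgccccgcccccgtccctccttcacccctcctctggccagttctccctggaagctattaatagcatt
Jun, chr4:95052231-95052372, minus strand: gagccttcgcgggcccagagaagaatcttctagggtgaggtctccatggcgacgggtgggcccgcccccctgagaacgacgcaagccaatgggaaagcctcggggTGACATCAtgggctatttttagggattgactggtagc
Egr2, chr10:67537719-67537860, plus strand: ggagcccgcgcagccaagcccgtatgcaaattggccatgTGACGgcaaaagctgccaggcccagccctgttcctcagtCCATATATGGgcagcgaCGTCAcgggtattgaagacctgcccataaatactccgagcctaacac
Fos, chr12:85473740-85473881, plus strand: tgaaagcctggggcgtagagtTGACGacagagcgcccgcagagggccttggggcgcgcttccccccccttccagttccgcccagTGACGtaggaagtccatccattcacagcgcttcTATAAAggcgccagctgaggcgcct
Both strands of each window were searched for 8 motifs. Among the 8 genes the composite site was in Atf3 alone, the Jun-type TRE in Jun alone and the CArG box in Egr2 alone. The windows of Fosl2 and Jund held no match. Over 32851 RefSeq promoter windows of the same length, the composite site TTGCATCA was in 0.895%, the Jun-type TRE TGACATCA in 3.62%, the CArG box in 1.63%, the CRE core site TGACG in 20.8% and TATAAA in 13.6%. The full CRE TGACGTCA, which contains the core, was in 1.79% of windows, the TRE TGACTCA in 5.20% and the EGR site GCGTGGGCG in 0.612%, and these 3 were in none of the windows of the 8 genes. The composite site of Atf3 starts 110 bases before its start, and a further CRE core site lies 7 bases before the start, outside the stretch shown. The Jun-type TRE starts 45 bases before the start of Jun. In Fos the core sites start 129 and 66 bases, and TATAAA 33 bases, before the start. In Egr2 the CArG box starts 72 bases before the third start, with the core sites at 111 and 55 bases. A match is a description of these letters and not evidence of binding.

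Counts in genes ran from 36.7 to 49.6 M per library over the 24 libraries, and mitochondrially encoded genes took 0.822 to 2.04% of them. The 0 h libraries were high in progenitor markers and low in neutrophil markers: the summed level of 7 progenitor genes (Kit, Cd34, Flt3, Myb, Mpo, Prtn3, Ctsg) was 10600 and 10698 CPM (counts scaled to library size, with TMM factors). The neutrophil sum of 7 genes (Ltf, Ngp, Camp, S100a8, S100a9, Mmp8, Cebpe) was 16.9 and 19.4 CPM at 0 h. The T cell genes Cd3e and Cd8a and the stromal genes Dcn and Col3a1 were at 0 counts in all 24 libraries. Other genes of these lists were not: Cd3d reached 58 counts, Trac 43 and Col1a1 230, and Pdgfrb had 166 to 2374 counts a library. All 10 genes passed the filter on low counts in the 20 withdrawal libraries, but Fosb did so only through its 4 libraries at 96 and 120 h and Atf3 only through its 8 libraries at 4, 72, 96 and 120 h, so their differences at those times were partly set by the filter. In the fits with R07, Fosb did not pass, which left 9 genes. Genes were called at a Benjamini-Hochberg adjusted p under 0.05 over all genes tested, by edgeR's quasi-likelihood test. Changes are log2 values ± SE.

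Across the 10 withdrawal times all 10 genes were called, against 91.1% of the 14615 genes tested. The courses differed between genes. Jun, Jund and Atf3 rose at 4 h, came back, and rose again from 72 h. Fos and Fosl2 were above 0 h at all times from 8 h on, whereas Egr1 fell from 8 h and rose above its starting level only at 96 h. Fosb, Junb and Egr2 were called at 96 and 120 h and at no earlier time. Fosl1 was the 1 gene called lower than 0 h at 120 h.

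**Figure D1:**
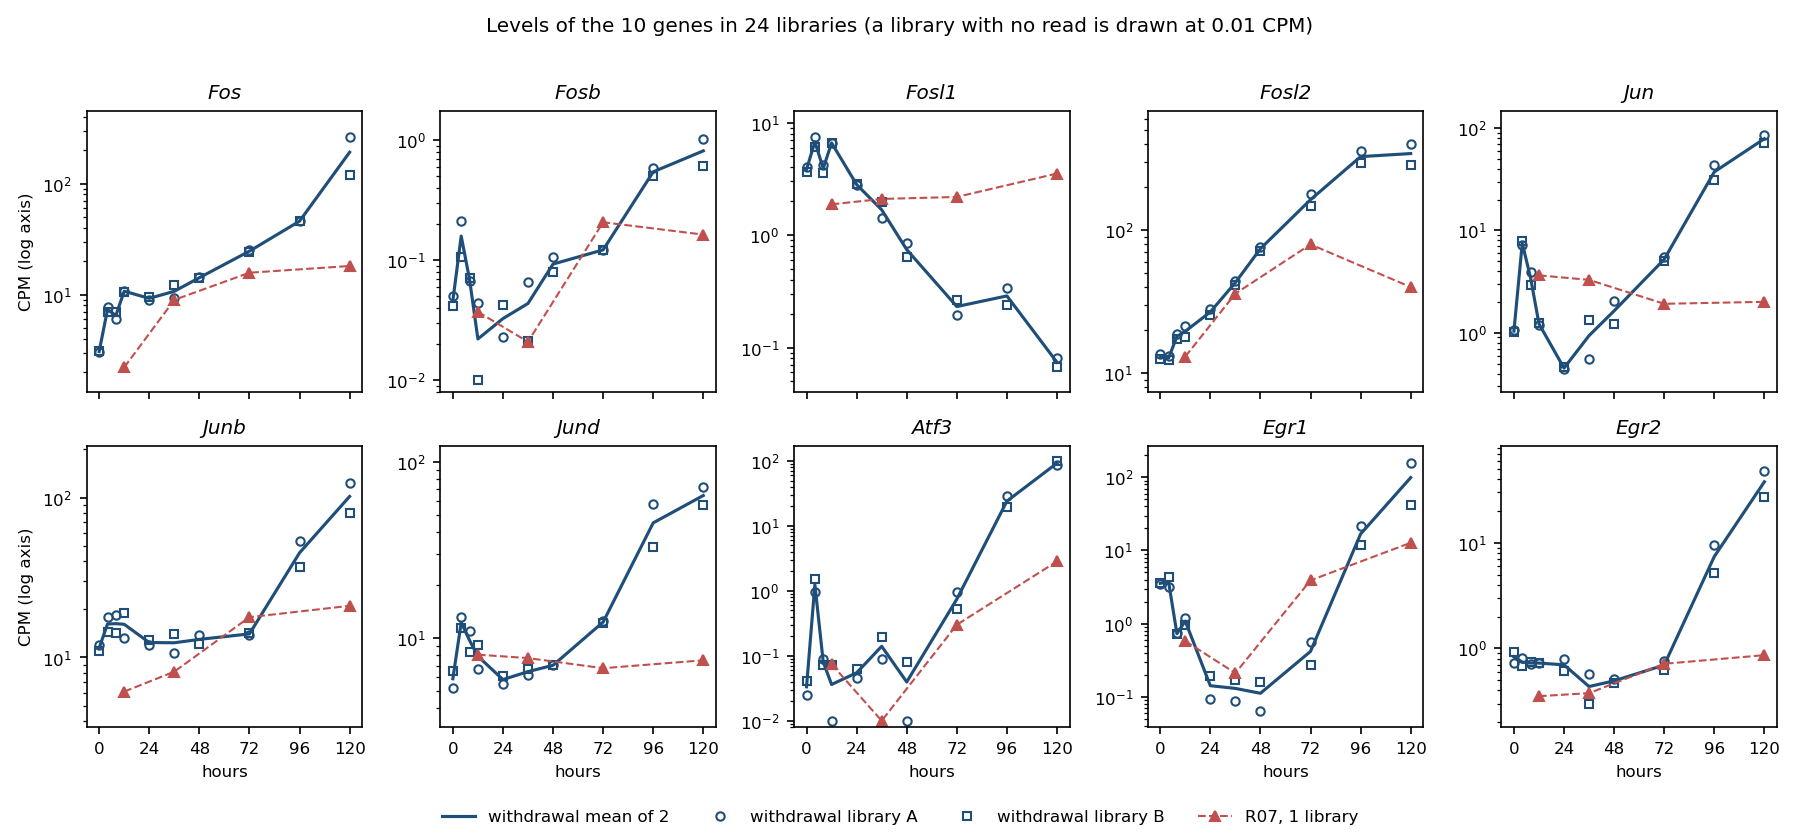
Level of each gene in CPM (log axis, each panel with its own range) against hours, for withdrawal libraries A (circles) and B (squares) with their mean (line) and for the single R07 libraries (triangles); a library with no read is drawn at 0.01 CPM. Atf3 peaks at 4 h and again at 96 and 120 h, Egr1 is lowest between 24 and 48 h, and at 120 h the R07 triangle lies below both withdrawal libraries in every panel but that of Fosl1, where it lies above.

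The first hours after withdrawal were read from the 4 h libraries. Of the 10 genes, 5 were called, all higher, against 11.7% of all genes tested. The median change of the 10 genes was 0.96, against 0.000208 over all genes tested. As the 10 genes were chosen with earlier results of these data known, such contrasts with all genes are descriptions only. Jun, the AP-1 subunit with the strongest activating domain of its family (ENSMUSG00000052684.4, chromosome 4, 95049034 to 95052222, minus strand, mm10), was at 1.06 and 1.01 CPM at 0 h, then at 7.16 and 7.84 CPM at 4 h. The 4 h libraries were both far above the 0 h libraries, and the change was 2.88 ± 0.27 (adjusted p = 3.76e-07). Atf3 (ENSMUSG00000026628.10, chromosome 1, 191170296 to 191218039, minus strand) had 1 and 2 counts at 0 h, then 45 and 73 counts at 4 h, which is 0.0253 and 0.0413 CPM against 0.953 and 1.55 CPM. With so few counts at 0 h the ratio was 36.6, with a 95% exact interval of 12.2 to 180.2 that covers counting error only (adjusted p = 1.79e-05). Even after this increase Atf3 stayed near 1 CPM.

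Fos, the partner that gives AP-1 much of its activating strength (ENSMUSG00000021250.10, chromosome 12, 85473890 to 85477273, plus strand), went from 3.07 and 3.08 CPM to 7.71 and 6.97 CPM at 4 h (1.28 ± 0.27, adjusted p = 0.00275). Jund (ENSMUSG00000071076.5, chromosome 8, 70698949 to 70700616, plus strand), the family member that many resting cells make, went from 5.22 and 6.55 CPM to 13.1 and 11.4 CPM (1.08 ± 0.21, adjusted p = 0.00174). Fosl1, which encodes FRA-1 (ENSMUSG00000024912.5, chromosome 19, 5447547 to 5455946, plus strand), went from 4.03 and 3.64 CPM to 7.43 and 6.07 CPM (0.84 ± 0.17, adjusted p = 0.00174). In each of these 3 genes both 4 h libraries lay above both 0 h libraries. The other 5 genes were not called, although Junb and Fosb were separated in the same way. The share of all genes so separated was not computed. Junb, a JUN protein that often counters JUN (ENSMUSG00000052837.5, chromosome 8, 84974484 to 84978718, minus strand), was at 18.0 and 14.4 CPM against 12.0 and 10.9 CPM (0.53 ± 0.21, adjusted p = 0.122). It was called when only the 4 libraries of the 2 times were fitted (adjusted p = 0.0410) and without the filter on low counts (adjusted p = 0.00253). Fosl2 changed by -0.01 ± 0.15, Egr1 by 0.09 ± 0.45, Egr2 by -0.15 ± 0.40 and Fosb, at 0.0413 to 0.212 CPM in these 4 libraries, by 1.76 ± 0.73, none past the threshold. The called genes were thus drawn from the FOS and JUN families and Atf3.

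The 4 h increases were short for Jun and Atf3. Between 4 and 8 h, 5 of the 10 genes were called, 4 lower and 1 higher, against 12.4% of all genes tested. The higher gene was Fosl2 (0.48 ± 0.15, adjusted p = 0.0386), a call lost without any 1 of the 4 libraries (0.0731 to 0.236), and 2 of the 5 calls were left when 8 h library B was dropped. Leaving out 4 h library B or 8 h library A kept 3. Atf3 was back to 4 and 3 counts (0.0894 and 0.0715 CPM, -3.93 ± 0.56, adjusted p = 7.78e-05). Jun changed by -1.14 ± 0.23 (adjusted p = 0.00182), to 3.91 and 2.96 CPM. Between 8 and 12 h it changed by a further -1.51 ± 0.28 (adjusted p = 0.00135), to 1.19 and 1.26 CPM. That last step called 2 genes, against 9.21% of all genes tested. At 24 h Jun stood at 0.440 and 0.464 CPM, below both 0 h libraries. The step from 12 to 24 h, which called 4 genes (1 higher, 3 lower) against 19.6% of all genes tested, changed Jun by -1.43 ± 0.39 (adjusted p = 0.0122), a call lost without either 24 h library or 12 h library B (0.0574 to 0.0752). Without any of these 3 libraries 1 of the 4 calls of that step was left. Against 0 h the level at 24 h was lower by 1.20 ± 0.40 (adjusted p = 0.0289), and that call was lost when any 1 of the 4 libraries was left out (adjusted p = 0.0785 to 0.122).

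Fosl1 had 2 early maxima. It was at 7.43 and 6.07 CPM at 4 h, at 4.23 and 3.60 CPM at 8 h, and at 6.59 and 6.62 CPM at 12 h. It changed by -0.81 ± 0.17 from 4 to 8 h (adjusted p = 0.00281) and by 0.74 ± 0.17 from 8 to 12 h (adjusted p = 0.00697). Both steps rest on 8 h library B: without it the adjusted p-values were 0.0587 and 0.117. Between 12 and 24 h Fosl1 changed by -1.23 ± 0.17 (adjusted p = 2.49e-05) and it went on down from there.

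The 8 h libraries had 5 genes called relative to 0 h, of which 4 were higher, beside 21.9% of all genes tested. The 12 h libraries had 4, of which 3 were higher, beside 16.0%. At 8 h the genes above 0 h were Fos (1.08 ± 0.27), Fosl2 (0.47 ± 0.15), Jun (1.73 ± 0.29) and Jund (0.72 ± 0.22), and at 12 h they were Fos (1.79 ± 0.26), Fosl1 (0.77 ± 0.17) and Fosl2 (0.57 ± 0.15). Egr1 was the gene below 0 h at both times. Single libraries decided most of the 8 h calls. Leaving out any 1 of the 4 libraries ended the call of Fosl2 (adjusted p = 0.0557 to 0.200). Leaving out 0 h library B or 8 h library B ended that of Fos (0.0611 and 0.0577). Leaving out 0 h library A or 8 h library A ended that of Jund (0.139 and 0.236). Only 2 of the 5 calls were left without 8 h library A, and again 2 without 8 h library B. At 12 h the call of Fosl2 was lost without 12 h library A (0.106) or 0 h library B (0.100), and 2 calls were then left.

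Egr1 (ENSMUSG00000038418.7), a zinc finger factor that in myeloid precursors is known to favour the macrophage path, had the largest decrease of the 10 genes against 0 h from 8 to 48 h. It was at 3.52 and 3.57 CPM at 0 h and still at 3.18 and 4.27 CPM at 4 h. At 8 h it was at 0.738 and 0.715 CPM, a change of -2.37 ± 0.57 from 4 h (adjusted p = 0.00806) that missed the threshold without 4 h library B or either 8 h library (0.0658 to 0.0746). From 24 to 48 h Egr1 lay between 0.0639 and 0.190 CPM, from 3 to 9 counts in a library, and the change against 0 h was -4.61 ± 0.77 at 24 h (adjusted p = 0.000102), -4.75 ± 0.78 at 36 h (5.38e-05) and -4.95 ± 0.79 at 48 h (2.53e-05). All 6 of these libraries lay far below both 0 h libraries, and the ranges of 24, 36 and 48 h overlapped. Calls of Egr1 at 8 h rested on both 8 h libraries (without A adjusted p = 0.0610, without B 0.0503), and its 12 h call (-1.72 ± 0.53, adjusted p = 0.0315) was lost without any 1 of the 4 libraries compared (0.0832 to 0.184). The summed level of 8 monocyte and macrophage genes (among them Csf1r, Adgre1, C1qa, Cd68 and Ccr2) was also lower at these hours: it was 765 and 822 CPM at 0 h, 260 and 381 CPM in the 4 h libraries, 127 and 133 CPM in the 8 h libraries, and 69.5 to 75.0 CPM from 24 to 36 h. The 2 courses differed in time. The sum had fallen by 4 h, when Egr1 was near its 0 h level. It was back up to 167 and 193 CPM at 48 h and 611 and 710 CPM at 72 h, with Egr1 still below 0 h. At 0 h a mean of 787 CPM of that sum was Ccr2, while C1qa had no read. The part of this movement in the result for Egr1 was not tested. In bulk RNA, fewer cells of a type and less RNA per cell cannot be told apart.

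Egr2 (ENSMUSG00000037868.12, chromosome 10, 67535475 to 67542188, plus strand), a relative of Egr1 that binds the same element, did not share this course. It was at 0.735 and 0.930 CPM at 0 h and stayed between 0.300 and 0.804 CPM in all 14 libraries from 4 to 72 h. The lowest were the 36 h libraries, at 0.571 and 0.300 CPM (-0.96 ± 0.45, adjusted p = 0.0953). That difference was past the threshold with DESeq2 (adjusted p = 0.0395), without the filter (0.00768) and in the fit of 36 and 0 h alone (0.0472).

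At 24, 36 and 48 h, 4 genes were called each time, 2 higher and 2 lower, against 27.9, 40.9 and 52.6% of all genes tested. The higher pair was Fos and Fosl2 at all 3 times. The lower pair was Jun and Egr1 at 24 h and Fosl1 and Egr1 at 36 and 48 h. Fosl2, which encodes FRA-2 (ENSMUSG00000029135.9, chromosome 5, 32135801 to 32157842, plus strand), climbed step by step: 13.6 and 12.6 CPM at 0 h, 18.7 and 17.4 at 8 h, 28.2 and 25.4 at 24 h, 44.4 and 41.5 at 36 h, 76.2 and 72.0 at 48 h, 179 and 147 at 72 h. From 24 to 96 h no 2 neighbouring times overlapped. It was called at each step from 12 to 96 h, although the step from 12 to 24 h (adjusted p = 0.0343) was lost without either 24 h library or 12 h library B (0.0593 to 0.243), and that from 24 to 36 h (adjusted p = 0.00379) without 36 h library A or 24 h library B (0.0543 and 0.0743). The 36 h step called 2 genes (1 higher, 1 lower) against 7.18% of all genes tested, and the 48 h step 2 (1 higher, 1 lower) against 12.7%. In both steps these were Fosl2 and Fosl1. The Fosl1 call from 24 to 36 h (-0.74 ± 0.19, adjusted p = 0.0200) was lost without either 24 h library or 36 h library A (0.113 to 0.283), and that from 36 to 48 h (-1.18 ± 0.23, adjusted p = 0.00155) without 36 h library B (0.0590). Without 24 h library B no gene of the 10 was called from 24 to 36 h.

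Fosl1 fell while Fosl2 rose from 24 to 72 h. It was at 2.80 and 2.83 CPM at 24 h, 1.41 and 1.95 at 36 h, 0.852 and 0.634 at 48 h, 0.196 and 0.267 at 72 h, 0.337 and 0.238 at 96 h, and 0.0808 and 0.0671 at 120 h, where 3 and 2 counts were left. Against 0 h the change was -1.20 ± 0.19 at 36 h (adjusted p = 3.04e-05), -4.05 ± 0.27 at 72 h (3.21e-11) and -5.60 ± 0.35 at 120 h (4.70e-12). The step from 72 to 96 h was not called (0.32 ± 0.43, adjusted p = 0.587). Its last step, from 96 to 120 h (-1.86 ± 0.58, adjusted p = 0.0124), was lost without 96 h library A or either 120 h library (0.0587 to 0.0956). Over the 10 mean log2 levels the Pearson correlation of Fosl1 with Fosl2 was -0.969, the lowest of the 45 pairs among the 10 genes, and that of Junb with Egr2 was 0.983, the highest. These points share libraries and a common trend over time.

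From 72 h most of the genes rose. The 72 h libraries had 7 genes called against 0 h (5 higher, 2 lower), against 69.6% of all genes tested. The 96 and 120 h libraries had all 10, 9 higher and 1 lower, against 77.4 and 79.9%, which is a background so high that the counts say little about these genes. The median change of the 10 genes was 3.31 at 96 h and 4.79 at 120 h, and that of all genes tested was -0.02 and -0.06, with a median absolute change of 1.05 and 1.20. By steps, 6 genes were called from 48 to 72 h (5 higher, 1 lower) against 44.0% of all genes tested, 9 from 72 to 96 h (all higher) against 53.7%, and 8 from 96 to 120 h (7 higher, 1 lower) against 43.2%.

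**Figure D2:**
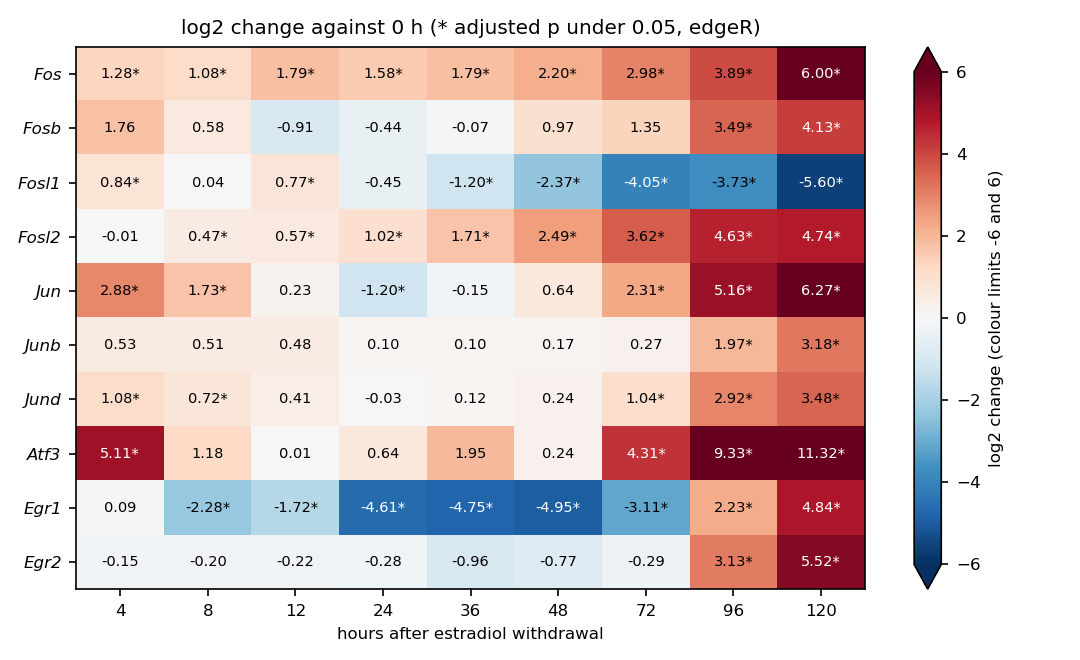
log2 change of each gene against 0 h at the 9 later withdrawal times, from the fit of 20 libraries; colours run from -6 (blue) to 6 (red), values beyond are shown at the limit, and a star marks an adjusted p under 0.05. The stars at 4 h lie on Fos, Fosl1, Jun, Jund and Atf3, Egr1 is blue from 8 to 72 h, and at 96 and 120 h every gene but Fosl1 is red.

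Among the JUN genes, Jun rose most. It was at 5.45 and 5.00 CPM at 72 h, 43.4 and 31.3 CPM in the 96 h libraries, and 86.0 and 71.4 CPM at 120 h (6.27 ± 0.26 against 0 h, adjusted p = 9.02e-15). Its level at 72 h was still below that of 4 h, with no overlap. Junb stayed between 10.7 and 18.9 CPM in all 16 libraries from 0 to 72 h, then reached 53.2 and 37.0 CPM at 96 h, and finally 123 and 80.2 CPM at 120 h (3.18 ± 0.22, adjusted p = 2.46e-11). Jund was at 12.4 and 12.2 CPM at 72 h, at its 4 h level. It reached 57.3 and 32.9 CPM at 96 h, and finally 72.1 and 56.8 CPM at 120 h (3.48 ± 0.22, adjusted p = 6.37e-12). The 96 and 120 h ranges of Jund overlapped, and the step between them (0.55 ± 0.19, adjusted p = 0.0242) was lost when 120 h library A (0.232) or 96 h library B (0.415) was left out, and in the fit of the 2 times alone (0.0909).

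Among the FOS genes, Fos had its largest step last. It was at 25.3 and 24.0 CPM at 72 h, 46.1 and 45.7 CPM in the 96 h libraries, and 264 and 119 CPM at 120 h (6.00 ± 0.28 against 0 h, adjusted p = 3.99e-14). Library A was 1.05-fold library B at 72 h, 1.01-fold at 96 h and 2.21-fold at 120 h. Fosl2 levelled off: it was at 360 and 292 CPM at 96 h, 398 and 287 CPM in the 120 h libraries, and the step between them was 0.11 ± 0.14 (adjusted p = 0.547). Fosb (ENSMUSG00000003545.2, chromosome 7, 19302696 to 19310051, minus strand) was the least abundant of the family, with 0 to 10 counts in each library up to 72 h, 19 and 17 counts at 96 h and 38 and 18 counts at 120 h. At 120 h it was at 1.02 and 0.604 CPM, and its ratio to 0 h, where 4 counts stood in all, was 18.4 (95% exact interval 6.79 to 69.8, counting error only).

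Atf3 had the largest span of the 10 genes. It was at 0.957 and 0.534 CPM at 72 h, 28.9 and 19.3 CPM in the 96 h libraries, and 86.2 and 99.0 CPM at 120 h. Both late times lay far above its 4 h level. Against the 3 counts at 0 h the ratio was 703 at 96 h (95% exact interval 240.2 to 3414) and 2692 at 120 h (921 to 13057). From 96 to 120 h Atf3 rose by 1.98 ± 0.20 (adjusted p = 7.99e-08).

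The EGR genes moved at the last 2 times. Egr1 went from 0.564 and 0.267 CPM at 72 h, still below 0 h (-3.11 ± 0.65, adjusted p = 0.000252), to 21.7 and 11.8 CPM at 96 h, and finally 156 and 41.9 CPM at 120 h (4.84 ± 0.43 against 0 h, adjusted p = 1.92e-09). Its 120 h libraries differed 3.73-fold, the widest gap between A and B among the 10 genes at that time, and both were above every earlier library. Egr2 went from 0.761 and 0.631 CPM at 72 h to 9.62 and 5.21 CPM at 96 h, and finally 48.3 and 27.4 CPM at 120 h (5.52 ± 0.31, adjusted p = 9.05e-13). At 120 h library A was the higher of the pair for 9 of the 10 genes, Atf3 being the exception, and at 96 h for all 10. The share of all genes higher in library A was not computed. Of 14615 genes tested, 710 differed over 2-fold, in either direction, within the 96 h pair and 617 within the 120 h pair. Without 120 h library A, or without B, all 10 genes were still called against 0 h at 120 h. The spread of that pair also enters every other comparison of the fit: without either of them, Fos was called from 8 to 12 h and from 36 to 48 h (adjusted p = 0.000882 to 0.0289) and Egr1 from 48 to 72 h (0.0262 and 0.0318), which the full fit did not call.

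Markers of mature cells moved over the same hours and before. All 7 progenitor genes fell and all 7 neutrophil genes rose between 0 and 120 h: the progenitor sum went to 260 and 334 CPM and the neutrophil sum to 18123 and 24239 CPM. Of 8 monocyte and macrophage genes 7 rose, Ccr2 fell, and their sum was 611 and 710 CPM at 72 h, 1627 and 2336 CPM in the 96 h libraries and 4887 and 5075 CPM at 120 h. The defining gene C1qa was at 0 counts in 16 of the 24 libraries, and at 120 h it was at a mean of 39.6 CPM. The neutrophil sum was higher at 96 h (24712 and 31192 CPM) than at 120 h, with no overlap, unlike Fos, Jun, Junb, Atf3, Egr1 and Egr2. The summed level of 6 eosinophil genes (Prg2, Prg3, Epx, Ear1, Ear2, Siglecf) had its peak earlier: it was 33.4 to 34.8 CPM at 0 h, 602 to 624 CPM at 24 h, 2074 to 2531 CPM at 48 h, 1836 to 2049 CPM at 72 h and 168 to 189 CPM at 120 h. This sum was mainly Prg2 (up to 1678 CPM) and Prg3 (up to 892 CPM), while Epx and Ear1 reached only 16.7 and 2.11 CPM. The genes did not peak together: Ear2 was highest in 96 h library A (116 CPM) and Siglecf in the R07 36 h library (189 CPM). The eosinophil sum was thus high during the climb of Fosl2 from 24 to 72 h, in which Fos was called only from 48 to 72 h. By 96 h the sum was down to 491 and 517 CPM, while Fosl2 rose further from 72 to 96 h (1.01 ± 0.14). A sum of 4 heat shock genes (Hspa1a, Hspa1b, Dnajb1, Hsph1) fell from 237 and 262 CPM at 0 h to 74.2 and 79.2 CPM at 120 h. The part of these movements in the results for the 10 genes was not tested.

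To compare levels of different genes, the make-up of each family was taken from CPM per kb of exon. The length joins all annotated exons of a gene (9680 bases for Fosl2, 2352 for Fos), so the shares depend on that annotation. The FOS family sum went from 4.55 CPM per kb at 0 h to 117 CPM per kb at 120 h, a 25.7-fold increase, and the JUN family sum from 8.83 to 108 CPM per kb, a 12.2-fold increase. At 0 h the FOS family was split between Fosl1 (40.6 and 42.2%), Fosl2 (29.5 and 29.9%) and Fos (27.8 and 29.7%). Fosl1 kept a mean share of 33.0% at 12 h, and then gave way: 8.35% at 36 h, 0.421% at 72 h and 0.0334% at 120 h. Fosl2 was the main family member from 48 to 96 h (54.4, 61.2 and 62.9%). At 120 h the order turned, with Fos at 63.1 and 73.1% and Fosl2 at 36.8 and 26.7%. This turn rests on the division by length: in CPM, Fosl2 (398 and 287) was still above Fos (264 and 119) at 120 h. Fosb did not exceed 0.407% in a withdrawal library.

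The JUN family was mostly Junb and Jund throughout. Junb held 52.8 and 60.1% and Jund 43.7 and 36.1% at 0 h, and Jun 3.53 and 3.85%. Jun reached a mean of 14.1% at 4 h and 1.57% at 24 h, and was at 10.8% at 72 h, 20.3% at 96 h and 23.2% at 120 h. In the 120 h libraries Jun held 21.8 and 24.5%, above every earlier withdrawal library. These are shares of mRNA, and protein was not measured.

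**Figure D3:**
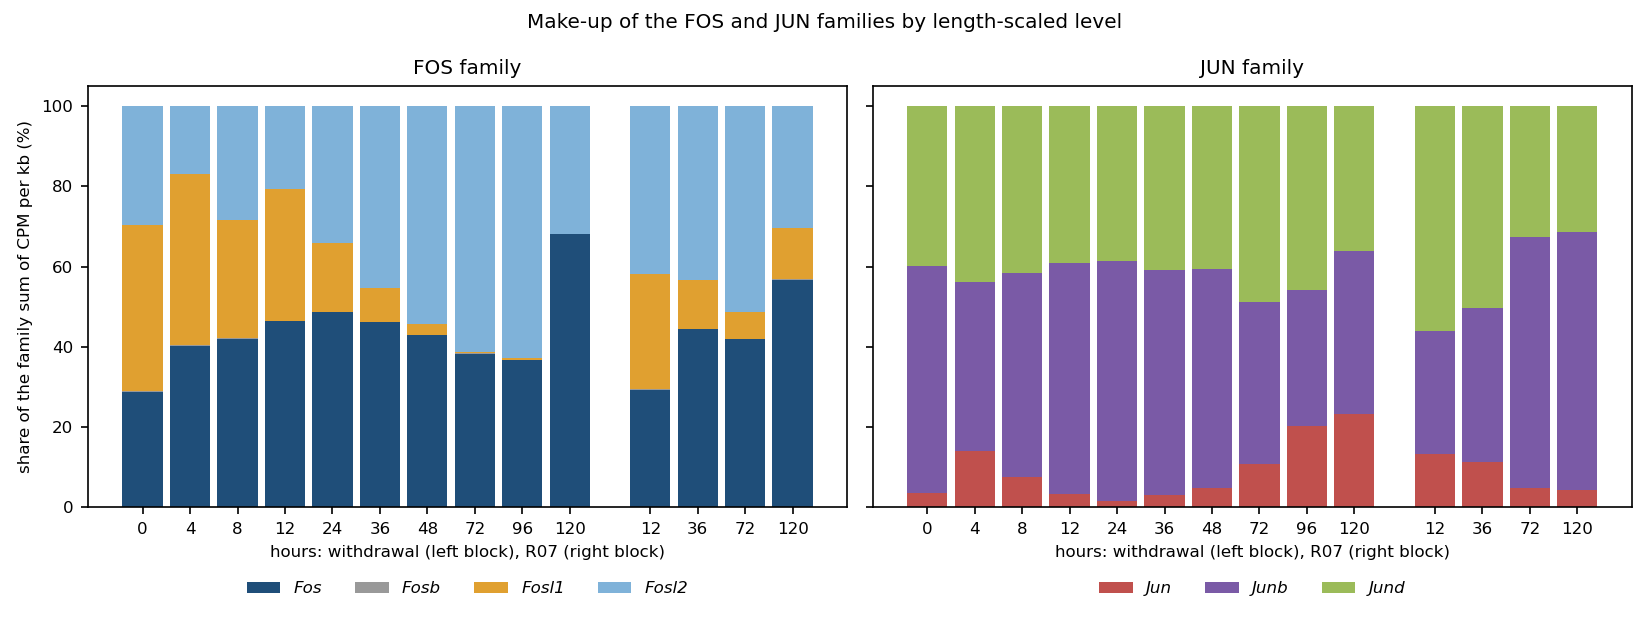
Make-up of the FOS family (left) and JUN family (right): each bar is 100% of the family sum of CPM per kb of exon, averaged over 2 withdrawal libraries or from 1 R07 library, by hours. Fosl1 fills 41.4% of the FOS bar at 0 h and is not visible at 120 h, where Fos fills 68.1%, and Jun fills 1.57% of the JUN bar at 24 h and 23.2% at 120 h.

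The R07 libraries were compared with withdrawal libraries of the same 4 times. None of the 9 genes tested was called by edgeR, against 16.6% of 13641 genes tested. The largest differences were Atf3 at -2.43 ± 1.01 (adjusted p = 0.130), Fosl1 at 2.25 ± 1.01 (adjusted p = 0.154) and Fos at -1.43 ± 0.51 (adjusted p = 0.0832). This test fits 1 difference over all 4 times, and ratios within a time are given below. DESeq2 called 3 of the 9 (Fos, Fosl1 and Fosl2), and edgeR on 36, 72 and 120 h alone called Fosl1 (3.18 ± 0.84, adjusted p = 0.0384) and Atf3 (-3.21 ± 0.91, adjusted p = 0.0482). Both were also called without the R07 12 h library (0.0194 and 0.0377). Leaving out the R07 library of 36, 72 or 120 h gave 1 call each time, of Fos (0.0417), Junb (0.0486) and Fosl2 (0.0390).

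At 120 h the levels of all 10 genes lay outside the range of the withdrawal pair, 9 below and 1 above. Over the 13641 genes, the R07 120 h library lay below both withdrawal libraries for 43.3% and above both for 51.7%. With 1 R07 library a time there is no test within a time. Egr2 was at 0.864 CPM with R07 and 48.3 and 27.4 CPM after withdrawal, a mean 43.9-fold higher, and Jun was at 2.01 CPM against 86.0 and 71.4 CPM (39.2-fold). Atf3 was at 2.85 CPM (122 counts) against 86.2 and 99.0 CPM (32.5-fold), and Fos at 18.1 CPM against 264 and 119 CPM (10.6-fold). Jund (8.60-fold), Fosl2 (8.57-fold), Egr1 (7.79-fold), Fosb (4.98-fold) and Junb (4.83-fold) had smaller ratios of the means. That of Egr1 sets 12.7 CPM against withdrawal libraries of 156 and 41.9 CPM, which themselves differed 3.73-fold, so its place in this order is not fixed. Fosl1 was the gene above: 3.52 CPM with R07 and 0.0808 and 0.0671 CPM after withdrawal, 47.7-fold higher with R07. Both 0 h libraries were near that R07 level, at 4.03 and 3.64 CPM.

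The earlier R07 times were mixed, with 6 genes below both withdrawal libraries and 2 above at 12 h, and 5 below and 4 above at 36 and at 72 h. The shares over the 13641 genes were 41.6% below and 39.3% above at 12 h, 46.4% and 44.5% at 36 h, and 46.0% and 44.6% at 72 h. Fos and Fosl2 were below both withdrawal libraries at all 4 times. Fos was at 2.21, 8.97, 15.8 and 18.1 CPM with R07 at 12, 36, 72 and 120 h, so its 12 h library lay under both 0 h libraries and the later ones above. Fosl2 was at 13.1, 36.0, 79.4 and 40.0 CPM, with its highest R07 level at 72 h.

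At the 4 times with an R07 library, Jun did not follow the withdrawal course. It was at 3.64, 3.29, 1.92 and 2.01 CPM, above both withdrawal libraries at 12 and 36 h (2.97-fold and 3.50-fold) and below both at 72 and 120 h. With no R07 library before 12 h, the level of Jun at 4 and 8 h of R07 is not known. Egr1 was at 0.576, 0.210, 3.90 and 12.7 CPM, so that at 72 h the R07 library was 9.38-fold above the withdrawal mean and at 120 h below it. Egr2 stayed between 0.353 and 0.864 CPM and Jund between 6.76 and 8.06 CPM in the 4 libraries. Junb was at 6.11, 8.15, 17.9 and 21.0 CPM. Atf3 was at 4, 0, 16 and 122 counts, or 0.0743, 0, 0.301 and 2.85 CPM, and the 0 at 36 h allows up to 3 counts. Fosb had 2, 1, 11 and 7 counts.

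**Figure D4:**
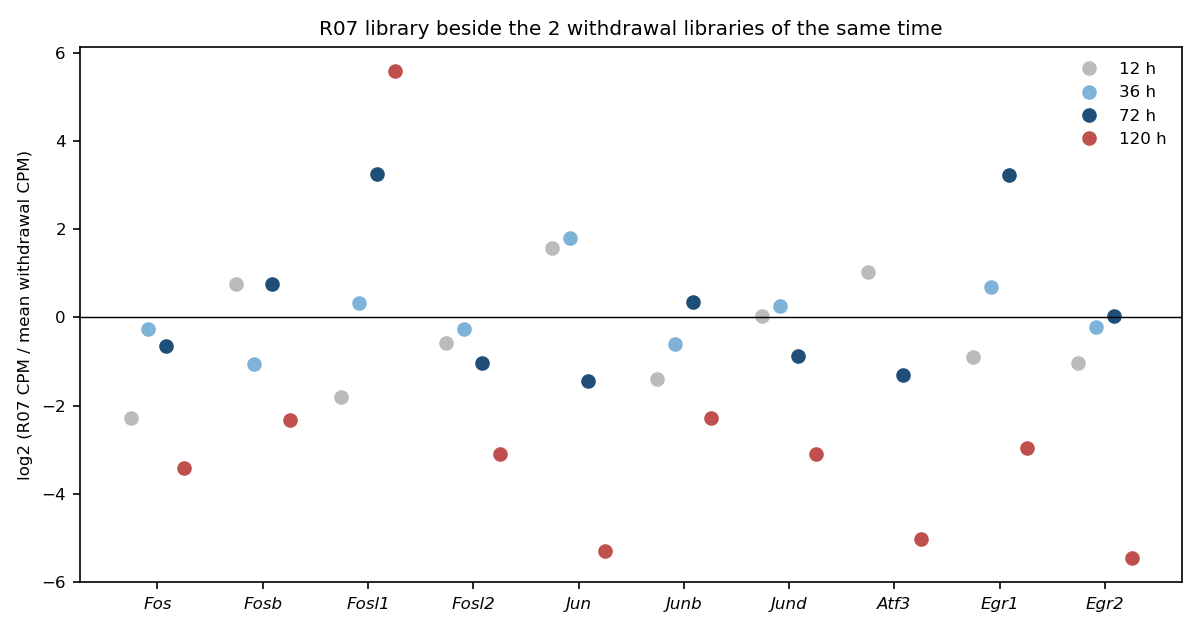
log2 ratio of the single R07 library to the mean of the 2 withdrawal libraries of the same time, for each gene and the 4 times; the line at 0 marks equal levels, and Atf3 at 36 h, with no R07 count, is left out. At 120 h 9 points lie below the line and that of Fosl1 above it, and at 72 h the points of Fosl1 and Egr1 lie above 3.

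Against 0 h, the 4 R07 libraries taken as 1 arm called none of the 9 genes and 0% of 13704 genes tested with edgeR, although 2868 genes had an unadjusted p under 0.05 and DESeq2 called 1220. Differences between R07 times enter this spread. Jun differed by 1.36 ± 0.41 (adjusted p = 0.153), Fos by 1.85 ± 0.75 (0.220) and Fosl2 by 1.66 ± 0.62 (0.195). DESeq2 called these 3. Without the R07 12 h library edgeR called Fos (2.19 ± 0.35, adjusted p = 0.0148) and Fosl2 (1.96 ± 0.37, adjusted p = 0.0207). The R07 and withdrawal comparisons with 0 h share the 0 h libraries.

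In the R07 libraries the make-up of the JUN family went from 13.2% Jun, 30.8% Junb and 56.0% Jund at 12 h to 4.41, 64.1 and 31.5% at 120 h. The FOS family of the R07 120 h library was 56.7% Fos, 30.4% Fosl2 and 12.8% Fosl1, with a family sum of 13.6 CPM per kb against 117 after withdrawal. The marker sums of the R07 libraries were 10242 to 16785 CPM for progenitor genes and 21.1 to 159 CPM for neutrophil genes. The sum of monocyte and macrophage genes was 713 to 1990 CPM. In the R07 72 h library, which had the highest of these sums, Ccr2 alone was at 1885 CPM. This sum thus says little about the other monocyte and macrophage genes with R07. The part of these marker levels in the differences was not tested.

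The partners and regulators of these factors were read from lists that hold none of the 10 genes. These lists too were chosen with earlier results of these data known. Plk2, Btg2, Batf3, Egr3 and Il1b were under the filter on low counts at 0 h and passed it through later libraries only. Their increases at 120 h, and the list counts that hold them, were thus partly set by the filter. Of 28 other immediate early genes tested, 8 rose and 1 fell at 4 h, beside 11.7% of all genes called, with a list median of 0.40. Plk3, a stress kinase (1.78 ± 0.24), Dusp5, a phosphatase of ERK (1.19 ± 0.16), and Klf6, a zinc finger factor (0.98 ± 0.16), rose most, and Sgk1, a kinase of salt and stress signalling, fell (-1.85 ± 0.33). At 120 h 23 of the 28 rose and 3 fell, beside 79.9% of all genes called (median 3.28, against -0.06 over all genes tested). Klf2, a zinc finger factor of quiescent monocytes, went from 0.202 ± 0.035 to 49.9 ± 9.9 CPM (SD, n = 2). Plk2 had 3 counts at 0 h and 778 at 120 h, and Btg2, an antiproliferative gene, 0 and 120 counts. Myc fell from 490 ± 0.25 to 25.0 ± 1.0 CPM (-4.26 ± 0.12, adjusted p = 4.50e-17), and Arc (-1.88 ± 0.61) and Dusp2 (-1.57 ± 0.18) fell too.

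Of 14 other bZIP genes whose proteins pair with JUN, FOS or each other, 1 was called at 4 h, beside 11.7% of all genes: Creb1, which fell (-0.76 ± 0.11, adjusted p = 8.08e-05). At 120 h 11 rose and 1 fell (Creb1, -0.63 ± 0.11), beside 79.9% of all genes called. Maf, a large MAF protein of macrophages, went from 0.297 ± 0.01 to 264 ± 9 CPM (9.81 ± 0.26, adjusted p = 1.46e-17). Batf3 had 1 count at 0 h and 22 at 120 h. The EGR relatives and their corepressors showed no call among 3 at 4 h. At 120 h all 3 rose: Egr3 had 0 counts at 0 and 4 h and 557 counts (8.28 and 8.35 CPM) at 120 h, Nab2 rose by 3.16 ± 0.20 and Nab1 by 1.41 ± 0.12. Egr3 also had 0 counts in all 4 R07 libraries.

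Genes for upstream signalling were called in both directions, beside 11.7% of all genes at 4 h and 79.9% at 120 h. Of 6 genes for serum response factor, its coactivators and ternary complex factors, Elk3 rose at 4 h (0.79 ± 0.10). At 120 h 4 rose, led by Elk1 (1.53 ± 0.12), Mrtfb (1.41 ± 0.11) and Mrtfa (1.09 ± 0.14), and Srf itself fell (-0.73 ± 0.12). Of 16 MAP kinase genes, Map2k3 rose (0.76 ± 0.09) and Map2k6 fell (-1.20 ± 0.18) at 4 h. At 120 h 7 rose and 4 fell, with Mapk13 (3.65 ± 0.22), Map3k1 (2.66 ± 0.10) and Map2k1 (2.37 ± 0.10) highest and Mapk11 (-3.71 ± 0.55) and the JNK gene Mapk8 (-1.52 ± 0.11) lowest. Of 6 genes that control FOS and JUN turnover or translation, 1 rose and 1 fell at 4 h and 3 rose and 2 fell at 120 h. Zfp36, whose protein destabilises AU-rich mRNAs, rose at both times (0.64 ± 0.18 and 5.26 ± 0.19), as 1 of the genes also counted among the immediate early genes.

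The shares of all genes called, 11.7% at 4 h and 79.9% at 120 h, also stand beside the next counts. Of 12 stress response genes around ATF3, Ddit4 (1.35 ± 0.23) and Xbp1 (0.61 ± 0.09) rose at 4 h, while Atf4 (-0.46 ± 0.10), which encodes an activator of Atf3 in the integrated stress response, and Sesn2 (-0.54 ± 0.17) fell. At 120 h 7 rose, led by Cebpb (3.22 ± 0.21), Gadd45a (2.18 ± 0.20) and Xbp1 (2.16 ± 0.09), and 3 fell, among them Atf4 again (-0.54 ± 0.10). Of 12 textbook AP-1 target genes 2 rose and 2 fell at 4 h: Ccnd1 (1.89 ± 0.45) and Hmox1 (1.31 ± 0.18) rose, Mmp13 (-3.13 ± 0.66) and Cd44 (-0.36 ± 0.11) fell. At 120 h 11 of the 12 rose and 1 fell. Mmp9, a matrix protease, was between 0.269 and 0.380 CPM at 0 h and between 1478 and 2307 CPM at 120 h. Il1b, an inflammatory cytokine gene, was between 0.152 and 0.165 CPM and then between 95.8 and 188 CPM. Il6 fell (-1.65 ± 0.27).

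The same lists were read in R07 against withdrawal. Calls were 6 of 26 immediate early genes (3 higher, 3 lower), 3 of 12 bZIP genes (1 higher, 2 lower), 3 of 16 MAP kinase genes (1 higher, 2 lower), 2 of 12 stress genes (both lower), 2 of 12 target genes (1 higher, 1 lower), 1 of 6 turnover genes (lower), 1 of 6 genes around serum response factor (higher) and none of 2 EGR and NAB genes, beside the 16.6% over all genes. The ERK phosphatase gene Dusp6 had the largest difference among the immediate early genes (2.87 ± 0.57, adjusted p = 0.0111): it was at 114, 157, 335 and 310 CPM with R07 and at withdrawal means of 49.9, 17.7, 11.2 and 127 CPM at 12, 36, 72 and 120 h. Il6, a cytokine gene, was higher with R07 (2.98 ± 0.63, adjusted p = 0.0148), at 25.4 CPM at 120 h against 1.84 and 2.64 CPM. Xbp1 (-1.16 ± 0.09) and Cebpb (-1.19 ± 0.24) were lower.

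The genes with the most similar withdrawal courses were sought by Pearson correlation over the 10 mean log2 levels, among 9652 genes. For Fosl2 they were Nat8l (0.999), Ebi3 (0.998) and Ralb (0.998), and for Fosl1 Med22 (0.991), Ripor1 (0.989) and Pom121 (0.988). For Atf3 they were Sqstm1 (0.984), which encodes the autophagy receptor p62, Leprotl1 (0.983) and Fam168b (0.980), and for Jun Plec, Atf7ip (0.989 each) and Wdr81 (0.986). For Fos they were Commd7 (0.988), Chmp3 (0.983) and Pld3 (0.983), for Fosb Hgs, Ube2j1 (0.980 each) and Pnrc1 (0.977). For Junb they were Plekhm2 (0.994), Tmem168 (0.991) and Mfsd5 (0.990), and for Jund Frmd8 (0.994), Mcur1 (0.992) and Ucp2 (0.990). For Egr1 they were Rnf141 (0.983), Marcksl1 (0.978) and Ubr3 (0.976), and for Egr2 Ddhd1 (0.994), Tmem168 (0.993) and Rnf149 (0.989). Tmem168 was the 1 gene named for a pair, Junb and Egr2. None of the 10 genes was among the 3 most similar to another. Fosb, Fosl1, Atf3, Egr1 and Egr2 could not be, as their mean log2 CPM was under the minimum of 1. All points share libraries and a common trend, and no p is given.

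Some of the 10 genes share genomic space with another gene on the opposite strand. These are Ccdc85b at Fosl1 (41 to 362 counts a library), Junos at Jun (2 to 44), Prdx2 at Junb (1658 to 8648), Gm11175 at Jund (0 to 6) and Gm24748 at Atf3 (0). The libraries are stranded, but the strand setting of the counting is not given in the sources used here, so reads from the overlapping parts may not be assigned to the right gene.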

How the data were processed

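RNA of 24 libraries was prepared with an oligo-dT, strand-preserving kit, per the labels' protocols. The deposited table holds raw counts per Ensembl gene. STAR 2.4.2a, Picard and mm10 are named in the submitters' processing notes; the counting program, its strand setting and the annotation are not given in the sources used here. Of 45323 rows, 4 name no gene and stayed out of library sizes and tests; 82.7 to 85.7% of reads were in genes.

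Counts were normalized by TMM, filtered with filterByExpr and tested in R 4.3.3 by the quasi-likelihood test of edgeR 4.0.16 (with limma 3.58.1), adjusted by Benjamini-Hochberg over all genes. The 20 withdrawal libraries were fitted with time as a factor (14615 genes). R07 was tested with time and arm terms (13641 genes), and against 0 h (13704 genes). Levels are CPM with TMM-scaled library sizes; gene positions and exon lengths are from GENCODE on mm10. Intervals are exact (Clopper-Pearson, 95%, scipy 1.17.1) and, like floors of 3 counts, cover counting error only. The tests of 4 h against 0 h and of R07 against withdrawal were run on simulated data in which all genes had the same spread. The test of R07 against 0 h was not checked in this way. The alternatives were RLE normalization, no filter, DESeq2 1.42.0, fits of only the times compared, a replicate block and leaving out each library.

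The 10 genes and the lists were chosen with earlier results of these data known. Named in the text are the 10 genes, from each list up to 3 called genes with the largest increase and 3 with the largest decrease per comparison, and the 3 genes most like each member whose mean log2 CPM reached 1. Egr3 and Dusp6 levels in R07, Ccr2 and C1qa, and the levels of single eosinophil genes, were singled out after their values were seen. Some named items are not reported here.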

Additional observations from a re-analysis of the deposited data

How the results depend on the processing

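No called value turned direction: of 4682 values of the 10 genes, 4519 kept direction and side of the threshold, 51 lost the threshold, 56 gained it, and 56, none of them called, changed sign. Among these were Jun and Egr1 in R07 against withdrawal, which ran from -0.89 to 0.89 and from -1.17 to 1.36, and Jun at 36 h against 0 h (-0.91 to 0.34). The number of the 10 genes called against 0 h stayed at 5 (4 h), 7 (72 h), 10 (96 h) and 10 (120 h) when any 1 library was left out, and at 5, 7, 10 and 10 with DESeq2 and RLE normalization. Leaving out single libraries gave 2 to 5 genes at 8 h, 2 to 4 at 12 h, 2 to 5 from 4 to 8 h, 1 to 3 from 8 to 12 h, 1 to 4 from 12 to 24 h and 0 to 2 from 24 to 36 h, and 0 to 2 for R07 against withdrawal and for R07 against 0 h. Without the filter 4 genes were called from 36 to 48 h, in place of 2. For R07 against withdrawal the count of 0 became 2 on 36, 72 and 120 h alone and 3 with DESeq2, and for R07 against 0 h it became 3 with DESeq2; the cause was not tested. Where a time kept 1 library, that library was assumed to vary like the others.

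Replicate numbers are in the labels, but the table's columns carry the letters A and B, which were used as the replicate block. Over 45 pairs of times the correlation of same-letter deviations ran from -0.156 to 0.214 (median 0.0139, 7 over 0.1). These values do not show what the letters stand for, which is not stated. With the block 5 genes were called at 4 h, 5 at 8 h and 10 at 120 h; at 36 h it called 5 in place of 4, Egr2 being added (adjusted p = 0.0294), and no other call of the 10 genes changed.

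Fosb and Atf3, with 0 to 10 counts at most early times, are limited by depth there. With Spearman in place of Pearson correlation, 0 to 1 of the 3 most similar genes stayed.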
